A study of Mus musculus with 24 samples.

Results

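Interferon-stimulated genes are described here in mouse cells of the stroma of human oral tumours grown in mice. The set holds 41 named genes that interferons are known to induce. A gene was measured by 1 probe set, the one with the highest mean over all 24 arrays among those naming that gene alone. By this rule 36 of the 41 had a level, among 17097 genes with such a probe set. Of the 36, 33 had a mean above the lower 40% of probe sets, at 6.27 on the log2 scale, and were tested among 11844 genes. Ifit2, Trim30a and Gbp3 lay under that floor, and Oas1a, Ifi44, Bst2, Isg15 and Tap1 were not analysed here. By role, the 33 tested genes were 15 of 19 antiviral effectors, 4 of 4 sensors, 10 of 12 transcription factors, genes of the ISG15 system and regulators, 2 of 3 antigen processing genes and 2 of 3 interferon-inducible GTPases.

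SCC25 cells, an established human oral carcinoma line, carried 1 of 4 short hairpins and were grown in the mouth of NOD-SCIDγ (NSG) mice. The hairpins were PLKO, which targets no gene, shEGR2_40.9 and shEGR2_38.9, both against EGR2, a zinc finger transcription factor, and shGAL, against GAL, which encodes the neuropeptide galanin. Each kind of tumour was studied in mice on a control diet and on a diet rich in palmitic acid (PA), a saturated fatty acid. This gave 8 groups of 3 arrays, described by the submitters as technical replicates, on the neural fraction of the stroma. Silencing was thus in the human tumour cells, while the arrays hold probes for mouse genes. Whether human tumour RNA also bound these probes was not tested, for the genes described here as for others. NSG mice lack T, B and natural killer cells and keep myeloid cells. No source used here says that these were separate animals, so p-values measure the spread between these arrays, which may be technical.

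Type I interferons bind a receptor on nearly all cells, and JAK kinases then activate transcription factors, among them STAT2, which enters the nucleus with IRF9 and binds the interferon-stimulated response element (ISRE). Interferon gamma acts at another site, the GAS element. Induced genes encode proteins that block viral replication, sense foreign RNA, feed peptides to class I molecules, or limit the response itself, and many are held at a basal level in epithelial, myeloid and endothelial cells without infection.

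The response element was searched in the 250 bases before the start of each gene, since it is the site through which type I interferon acts. RefSeq promoter sequences (GRCm38.p6) were at hand for 32 of the 41 genes, 24 of them tested. The letters GAAANNGAAA, on either strand, were found in 11 of the 32 genes (34.4%), against 3.46% of all 27025 genes and 2.98% of the 32851 promoter windows. GAS letters, TTCNNNGAA, were found in 7 of the 32 (21.9%), against 8.13% of genes and 7.02% of windows. Of the 24 tested genes, 6 held the ISRE letters: Ifit1, Ifit3, Rsad2, Stat2, Gbp2 and Igtp. The stretches of the 4 that also passed a test of level are shown in the direction of transcription, each with 20 bases on either side. Capitals mark the match, shown as its reverse complement where it lies on the opposite strand.
Ifit1: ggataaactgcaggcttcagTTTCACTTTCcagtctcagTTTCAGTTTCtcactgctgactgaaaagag
Ifit3: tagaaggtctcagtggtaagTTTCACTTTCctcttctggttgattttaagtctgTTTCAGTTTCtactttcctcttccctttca
Rsad2: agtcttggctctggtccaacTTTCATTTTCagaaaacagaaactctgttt
Igtp: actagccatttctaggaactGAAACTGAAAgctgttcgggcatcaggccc
They lie at chr19:34640765-34640833 (plus strand), chr19:34583353-34583436 (plus), chr12:26456543-26456592 (minus) and chr11:58199502-58199551 (plus). The Stat2 and Gbp2 matches, shown for comparison because neither gene passed a test in any comparison, are at chr10:128270256-128270305 (plus) and chr3:142620584-142620633 (plus).
Stat2: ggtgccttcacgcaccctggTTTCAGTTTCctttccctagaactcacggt
Gbp2: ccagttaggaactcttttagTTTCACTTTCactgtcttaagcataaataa
Other genes that passed a test did not hold these letters in this window. They were Ifih1, Oasl1, Cmpk2, Oasl2, Xaf1, Samd9l, Irf9, Herc6, Trim25, Dtx3l, Ifi35 and Psmb9. Usp18, Oas2, Rtp4, Dhx58, Zbp1, Parp9 and Parp14 passed too, but no promoter sequence was at hand for them.

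The values are log2 levels, on which a difference of 1 is a 2-fold change, and array medians lay between 6.71 and 6.81. The third array of the shEGR2_38.9 control group stood apart. Its mean was 7.09 against 7.15 to 7.17 elsewhere, and its Gapdh signal was 0.76 higher at the 3' than at the 5' probe set, against -0.12 to 0.08 in the other 23. Among the genes described here, Psmb8 was 1.13 lower on it than on the mean of the other arrays of its group, Ifit3 1.05 lower, Parp14 0.75 lower and Adar 0.57 lower. Of 13 Schwann cell markers, 9 had a probe set and 6 were above the floor, led by Erbb3, with group means of 10.66 to 11.30, Ngfr (7.97 to 8.51) and Mbp (7.46 to 7.66), whereas S100b, Mag and Foxd3 were under it. Of 8 neuron markers, 2 were above the floor, and the list had group means of 5.92 to 5.99. Keratinocyte markers averaged 10.60 to 11.46 per array, and whether this is mouse RNA or human tumour RNA on mouse probes was not tested. Markers of endothelial cells, all 10 above the floor, averaged 9.29 to 9.58 in the shEGR2_40.9 and 9.49 to 10.02 in the shEGR2_38.9 control group, against 7.92 to 8.58 in the other 6 groups. Of 8 neutrophil markers with a probe set, 3 were above the floor. That list averaged 6.12 to 6.41 in the shGAL groups, against 5.72 to 6.03 elsewhere. Pericyte and smooth muscle markers averaged 8.26 to 8.71 in the shEGR2_40.9 groups and the shEGR2_38.9 control group, against 7.43 to 8.09 elsewhere. The part of these cells in the levels described below was not tested. In RNA from mixed cells, fewer cells of a type and less RNA per cell cannot be told apart.

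Across the 8 groups the tested interferon-stimulated genes moved in parts, not as a block. The range between the lowest and highest group mean ran from 0.15 for Ifitm3 to 2.63 for Rsad2, with a median of 0.61, and 5 genes ranged over more than 1. The highest mean was in the shEGR2_38.9 PA-rich group for 12 genes, in the shEGR2_38.9 control group for 10 and in the shEGR2_40.9 PA-rich group for 6. The lowest was in the shGAL PA-rich group for 12 genes and in the shEGR2_40.9 control group for 6. It was in the PLKO PA-rich and shEGR2_38.9 control groups for 5 each. The matching shares of all genes were not counted, and these counts include the array that stood apart. On the other arrays of its group Parp14 averaged 10.69, against a highest group mean of 10.46. Ifitm3 averaged 12.80 on them, against a lowest group mean of 12.68. Of the 33 genes, 23 passed limma's test at an adjusted p under 0.05 in at least 1 of 14 comparisons (69.7%), as did 49.2% of all genes tested. As the genes were chosen with earlier results of these data known, these shares are no test of the set. The 10 that passed in none were Isg20, Mx1, Mx2, Adar, Ifitm3, Eif2ak2, Irf7, Stat2, Psmb8 and Gbp2.

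**Figure D1:**
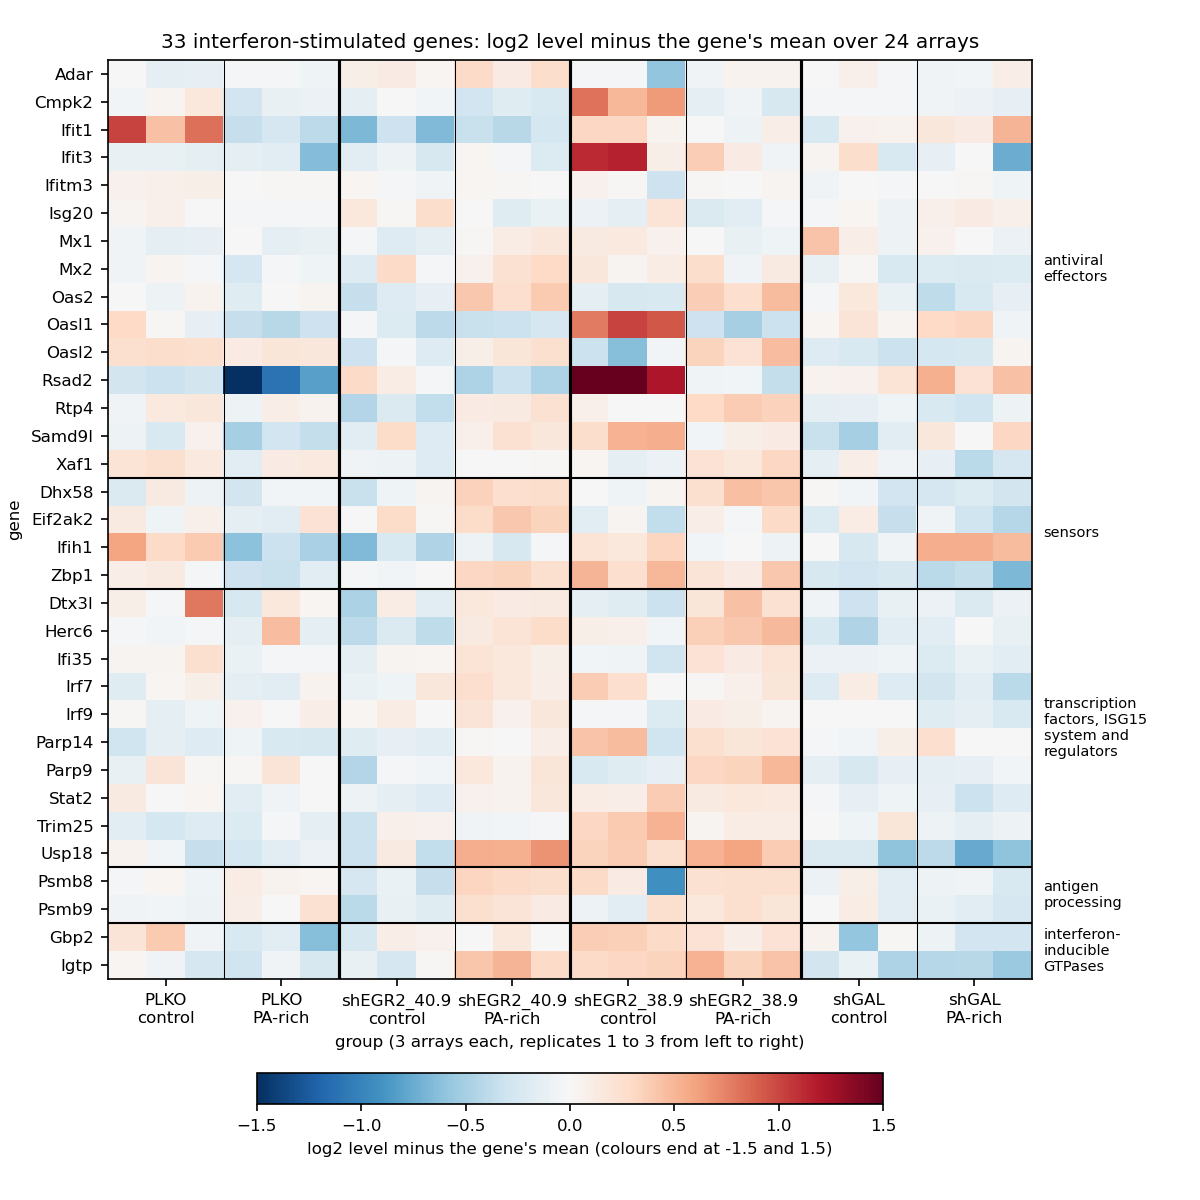
Log2 level of each of the 33 tested genes on each of the 24 arrays, minus the gene's mean over all arrays, as colour (red higher, blue lower; colours end at -1.5 and 1.5). Columns are arrays in the 8 groups of hairpin and diet, and lines part the roles. Rsad2 is highest in the shEGR2_38.9 control group and lowest in the PLKO PA-rich group, and the values plotted run from -1.67 to 1.56.

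The first question was whether diet moved these genes in tumours with the non-targeting hairpin. On the PA-rich diet with PLKO, 0 of 33 genes were higher (0.371% of all genes tested) and 3 were lower (0.811%), namely Ifit1, Rsad2 and Ifih1. The median change was -0.07, against 0.01 over all genes. With shEGR2_40.9 the PA-rich diet left 9 genes higher (background 3.73%) and 1 lower (5.22%), with a median of 0.21 against 0.03. With shEGR2_38.9, 9 were higher (13.8%) and 6 lower (8.3%), with a median of 0.09 against 0.07. With shGAL, 2 were higher (1.33%) and 0 lower (0.608%), with a median of -0.07 against -0.01. The array that stood apart enters the shared estimate of spread. Without it the 4 counts were 4, 15, 13 and 2 (2.27%, 13%, 19.1% and 4.46% of all genes). Without shEGR2_40.9 control replicate 1 the shEGR2_40.9 count fell to 5, and without PA-rich replicate 1 to 6. The shGAL count fell to 1 without control replicate 1 or 2 or PA-rich replicate 1 or 3. For these single arrays of shEGR2_40.9 and shGAL the shares of all genes were not counted.

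Hairpins were then compared with PLKO within a diet. These comparisons share the PLKO arrays, so they are not independent of each other or of the PLKO diet effect. On the control diet, shEGR2_40.9 tumours had 0 genes higher (7.19%) and 5 lower (4.94%), shEGR2_38.9 tumours had 10 higher (11.2%) and 5 lower (19.1%), and shGAL tumours had 0 higher (7.15%) and 4 lower (9.84%). On the PA-rich diet, shEGR2_40.9 tumours had 8 higher (2.53%) and 0 lower (1.49%), shEGR2_38.9 tumours had 6 higher (0.49%) and 0 lower (0.135%), and shGAL tumours had 5 higher (7.6%) and 3 lower (4.77%). The medians on the control diet were -0.09, 0.06 and -0.10, against -0.04, -0.08 and -0.01 over all genes. For PA-rich groups they were 0.20, 0.23 and -0.12, against -0.01, -0.01 and -0.04. Blocking on the scan batch, the PA-rich counts were 5 for shEGR2_40.9 (2.77% of all genes), 2 for shEGR2_38.9 (0.203%) and 10 for shGAL (11%). Leaving out PLKO PA-rich replicate 1 left 4 genes for shEGR2_40.9 and 3 for shEGR2_38.9. Leaving out either of replicates 2 and 3 of the shEGR2_40.9 PA-rich group left 5, and of the shEGR2_38.9 PA-rich group left 3. For shGAL the PA-rich count was 5 without PLKO PA-rich replicate 3. The shGAL control count was 8 without shEGR2_38.9 control replicate 3 (23.6% of all genes). The shares of all genes without the other arrays named here were not counted.

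Differences between diet effects were tested directly. Against the PLKO diet effect, that of shEGR2_40.9 was more positive for 7 genes (1.8%) and more negative for 0 (2.36%), that of shEGR2_38.9 for 10 (7.84%) and 4 (5.52%), and that of shGAL for 4 (1.01%) and 0 (0.321%). The diet effect of shEGR2_38.9 exceeded that of shEGR2_40.9 for 0 genes (3.77%) and was more negative for 6 (1.81%). The medians of these differences were 0.33, 0.16, 0.00 and -0.19, against 0.02, 0.06, -0.01 and 0.03 over all genes. The count for shEGR2_40.9 was 12 without shEGR2_38.9 control replicate 3 (7.21% of all genes). That for shEGR2_38.9 was 9 without PLKO control replicate 3, where the share of all genes was not counted. Of 107 calls over the 14 comparisons, 62 were kept in every alternative setting run for the gene and 0 changed sign. The 4 calls of Cmpk2 are among the 62, but its mean over probe sets was under the floor and was not tested. Each diet effect called was in the same direction in all 3 pairs of arrays scanned together, except Ifih1 with shEGR2_40.9, in 2 of 3. Each called difference from PLKO had the same sign in the 1 scan batch that the groups share. Where groups do not overlap this is bound to be so, and it is then no separate check on the scan batch. Of the called diet effects, only those of Ifit3 with shEGR2_38.9 and Ifih1 with shEGR2_40.9 had overlapping groups. Where groups are said not to overlap below, 20.9% to 34.6% of all genes did not overlap in the comparisons of diet, 30.2% to 36.1% in those with PLKO on the control diet, and 30.9%, 23.8% and 38% with shEGR2_40.9, shEGR2_38.9 and shGAL on the PA-rich diet.

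Among the antiviral effectors, Ifit1, whose protein binds viral RNA lacking a methylated cap, was highest in PLKO tumours on the control diet. There the 3 arrays read 9.99, 9.42 and 9.81, and on the PA-rich diet 8.63, 8.73 and 8.59. The groups did not overlap, and Ifit1 fell by 1.09 (SE 0.13, adjusted p = 9.1e-05), with differences of -1.36, -0.69 and -1.22 within the 3 scan batches. The other control-diet groups were already lower, with 8.31, 8.67 and 8.31 in shEGR2_40.9, 9.29, 9.29 and 9.03 in shEGR2_38.9, and 8.75, 9.04 and 9.03 in shGAL. Against PLKO these were differences of -1.31 (adjusted p = 5.4e-07), -0.54 (0.0031; 0.051 when only the arrays compared were fitted) and -0.80 (0.00019). With PA-rich feeding the levels were 8.65, 8.56 and 8.71 in shEGR2_40.9, 8.99, 8.91 and 9.08 in shEGR2_38.9, and 9.15, 9.11 and 9.49 in shGAL. Only the shGAL group differed there from PLKO, by 0.60 (adjusted p = 0.0032). The diet effect of each hairpin was more positive than that of PLKO, by 1.30 for shEGR2_40.9, 0.88 for shEGR2_38.9 and 1.40 for shGAL (adjusted p = 0.00022, 0.0023 and 0.00023), and the 3 comparisons share the high PLKO control arrays.

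Rsad2, which encodes viperin, an enzyme that makes a chain-terminating nucleotide, had the widest range of the set. PLKO arrays read 10.49, 10.44 and 10.49 on the control diet and 9.09, 9.65 and 9.95 on the PA-rich diet. With shEGR2_38.9 the values were 12.32, 12.29 and 11.98 on the control diet and 10.71, 10.72 and 10.41 on the PA-rich diet. No other array reached the lowest of those 3 control values. The PA-rich diet came with a fall in Rsad2 of 1.59 with shEGR2_38.9 (log2 change -1.59, SE 0.15, adjusted p = 5.8e-08), and the differences within the 3 scan batches were -1.61, -1.57 and -1.57. With PLKO it fell by 0.91 (adjusted p = 0.0027; 0.086 when only the arrays compared were fitted). The other probe sets of the gene gave changes of -1.93 and -2.06 with shEGR2_38.9, and both passed. Such agreement was not general. Over the tested set, 35 pairs of a call and another probe set above the floor could be compared. The other probe set had the same sign in 33 of these and also passed in 19.

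Rsad2 in shEGR2_40.9 tumours read 11.05, 10.88 and 10.73 on the control diet and 10.30, 10.45 and 10.31 on the PA-rich diet. That fall of 0.53 (adjusted p = 0.024) lost its call without control replicate 1 or 2 or PA-rich replicate 1 or 3 (adjusted p up to 0.11). In shGAL tumours it read 10.82, 10.83 and 10.97, then 11.30, 10.98 and 11.20, a difference of 0.29 that did not pass. PA-rich arrays of all 3 hairpins lay above those of PLKO with no overlap, by 0.78, 1.05 and 1.59 (adjusted p = 0.0027, 0.0017 and 1.7e-07), and by 1.21, 1.07 and 1.25 within the shared scan batches. On the control diet shEGR2_38.9 was 1.73 above PLKO (SE 0.15, adjusted p = 1.4e-08). Its diet effect was 1.05 more negative than that of shEGR2_40.9 (adjusted p = 0.0038) and that of shGAL was 1.20 more positive than that of PLKO (0.0037). The difference of -0.68 between the diet effects of shEGR2_38.9 and PLKO (adjusted p = 0.034) lost its call in 8 of the fits that left out 1 array, those without any of the 3 PLKO control arrays, PLKO PA-rich replicate 2 or 3, shEGR2_38.9 control replicate 1 or 2, or PA-rich replicate 3, with an adjusted p of up to 0.11.

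Oasl1, Cmpk2 and Ifit3 were also highest in the shEGR2_38.9 control group. Oasl1, an inhibitor of Irf7 translation, read 7.34, 7.57 and 7.49 there, 6.25, 6.07 and 6.23 on the PA-rich diet, and 6.86, 6.58 and 6.44 in PLKO controls. Cmpk2, a mitochondrial nucleotide kinase next to Rsad2 on chromosome 12 with no coding gene between them, read 7.90, 7.57 and 7.73, then 6.95, 7.03 and 6.85, against 7.04, 7.12 and 7.24 in PLKO controls. Neither gene's shEGR2_38.9 control arrays overlapped either of the other groups. Oasl1 had means under the floor in the PA-rich groups of PLKO (6.21), shEGR2_40.9 (6.26) and shEGR2_38.9 (6.18), so its changes from or to these levels are uncertain in size. Counted from the floor, its fall with shEGR2_38.9 was at least 1.195. Between the diets Oasl1 fell by 1.28 (SE 0.11, adjusted p = 2.3e-08) and Cmpk2 by 0.79 (SE 0.08, 1.4e-07), and over PLKO controls they were higher by 0.84 (4.2e-06) and 0.60 (5.3e-06). Both diet effects were more negative than that of PLKO, by -0.87 (adjusted p = 0.00054) and -0.58 (0.0011), and than that of shEGR2_40.9, by -1.19 (4.6e-05) and -0.63 (0.0016). Oasl1 was also 0.55 above PLKO in the shGAL PA-rich group (adjusted p = 0.0017).

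Ifit3, an RNA-binding partner of Ifit1 whose probe set may also read the near-identical Ifit3b, read 9.46, 9.49 and 8.42 in the shEGR2_38.9 control group and 8.71, 8.46 and 8.29 on the PA-rich diet. The lowest control value is that of the array that stood apart, and with it the groups overlapped. Ifit3 was 0.91 above PLKO controls, which read 8.24, 8.23 and 8.20 (adjusted p = 0.0029), and 1.26 above without that array (2.1e-05). Its fall of 0.64 with the PA-rich diet (adjusted p = 0.036) was 0.99 without that array (0.00038), but the call was lost without control replicate 1 or 2, without PA-rich replicate 2 or 3, and when only the arrays compared were fitted (adjusted p up to 0.18).

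The neighbouring Ifit2, a further RNA-binding family member, had a mean under the floor over all arrays, and was above it in the control groups of both EGR2 hairpins. It read 6.04, 6.82 and 6.16 with shEGR2_40.9 and 8.56, 8.80 and 7.36 with shEGR2_38.9 on the control diet, and with the latter 5.68, 5.89 and 5.80 on the PA-rich diet, against 6.01, 5.72 and 5.82 in PLKO controls. In a fit of all 17097 genes Ifit2 differed in shEGR2_38.9 controls from both of these groups (adjusted p = 2.5e-07 and 2.8e-07). Both lay under the floor, so the difference is given as a bound, at least 1.965 on the log2 scale above the floor. Endothelial markers were high in the same control group, 9 of 10 above PLKO with a median of 1.66, and 9 of 10 were lower after PA-rich feeding, with a median of -1.56. They were also 9 of 10 above PLKO in shEGR2_40.9 controls, with a median of 1.24, where Oasl1 read 6.53, 6.35 and 6.17, Cmpk2 6.94, 7.08 and 7.05 and Ifit3 8.18, 8.27 and 8.10, all without a call against PLKO. The macrophage markers Cd68, Mrc1 and Cd14, of 6 tested, were above PLKO in both EGR2 control groups, while Csf1r, C1qc and Fcgr1 differed by -0.17 to 0.00 and passed in neither. The mean over all 12 listed macrophage markers was 6.42 to 6.46 per array in shEGR2_38.9 controls, 6.22 to 6.42 in shEGR2_40.9 controls and 6.17 to 6.52 in PLKO controls. Of 9 keratinocyte markers, 4 were lower in shEGR2_38.9 controls, where 19.1% of all genes were, and their mean was lowest on the array that stood apart, at 10.60. The part of these cells in the levels of Rsad2, Oasl1, Cmpk2, Ifit2 and Ifit3 was not tested.

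**Figure D2:**
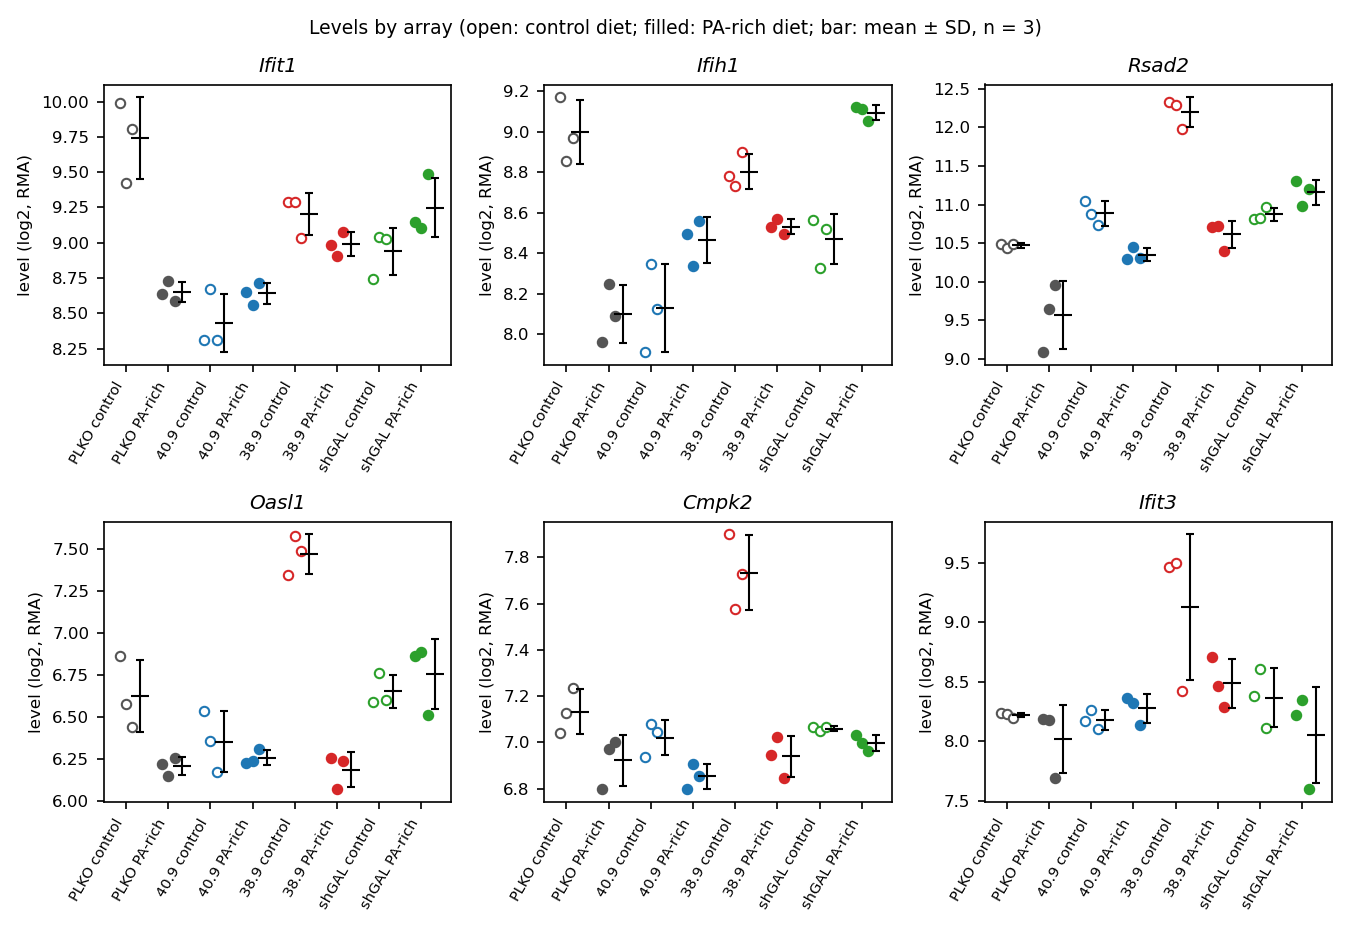
Log2 levels on each array (points; open, control diet; filled, PA-rich diet) with the mean ± SD of 3 arrays, by group, for 6 genes: Ifit1 and Ifih1, lower in PLKO tumours on the PA-rich diet, and Rsad2, Oasl1, Cmpk2 and Ifit3. Rsad2 reads 11.98 to 12.32 in the shEGR2_38.9 control group, above all other arrays, and Ifit1 reads 9.42 to 9.99 in PLKO controls.

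Of the 15 effectors, Oas2 and Rtp4 rose with the PA-rich diet for both EGR2 hairpins. Oas2, an RNA-activated synthetase of 2-5A that switches on RNase L, read 8.20, 8.36 and 8.43 in shEGR2_40.9 controls and 8.96, 8.81 and 8.94 on the PA-rich diet. With shEGR2_38.9 it read 8.41, 8.31 and 8.32, then 8.92, 8.80 and 9.02. PLKO arrays lay between 8.37 and 8.61 on both diets, so neither EGR2 group overlapped PLKO on the PA-rich diet. Oas2 rose by 0.57 with each EGR2 hairpin (SE 0.09, adjusted p = 0.00012 and 4.7e-05), which was 0.61 and 0.60 more than with PLKO (0.0062 and 0.0020). The levels on the PA-rich diet were 0.39 and 0.41 above PLKO (adjusted p = 0.010 and 0.029), calls that did not hold with the scan batch as a block. The shEGR2_40.9 call was lost without PLKO PA-rich replicate 1 or shEGR2_40.9 PA-rich replicate 3 (adjusted p up to 0.078), and the shEGR2_38.9 call without any 1 of its 6 arrays (up to 0.19).

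Oasl2, a related protein with ubiquitin-like domains that helps RNA sensing, was 10.38, 10.40 and 10.38 in PLKO controls. It was lower in every other control-diet group, at 9.84, 10.11 and 9.95 with shEGR2_40.9, 9.82, 9.51 and 10.11 with shEGR2_38.9, and 9.95, 9.91 and 9.83 with shGAL. None of the 3 groups overlapped PLKO. Their differences were -0.42 (adjusted p = 0.013; 0.070 without shEGR2_40.9 control replicate 1), -0.58 (0.00038) and -0.49 (0.0036). Oasl2 read 10.48, 10.36 and 10.61 with shEGR2_38.9 on the PA-rich diet, a rise of 0.67 (SE 0.11, adjusted p = 0.00010), and the diet effect was 0.76 more positive than that of PLKO (0.0020). Oasl1 lies beside Oasl2 on chromosome 5, with no coding gene between them, and fell in the same comparison.

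Rtp4, a chaperone of receptors that interferon induces strongly, read 10.27, 10.49 and 10.34 in shEGR2_40.9 controls, under all arrays of PLKO controls (10.66, 10.86 and 10.88). The difference was -0.43 (SE 0.08, adjusted p = 0.00045). Rtp4 rose with PA-rich feeding by 0.50 for shEGR2_40.9 (adjusted p = 0.00010), to 10.83, 10.84 and 10.94, and by 0.32 with shEGR2_38.9 (0.0040), to 11.01, 11.09 and 11.06. The shEGR2_40.9 effect was 0.57 more positive than that of PLKO (adjusted p = 0.0036). For shEGR2_38.9 that difference, 0.38 (adjusted p = 0.021), lost its call with renewed quantile normalisation and without PLKO control replicate 2 or 3, PLKO PA-rich replicate 1 or shEGR2_38.9 PA-rich replicate 2 (up to 0.070).

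Samd9l and Xaf1 gave calls that were mostly lost when any of several arrays, or for 1 call of Xaf1 a given array, was left out. Samd9l, a restriction factor of poxviruses, read 8.05, 8.32 and 8.33 in shEGR2_38.9 controls against 7.71, 7.56 and 7.85 in PLKO controls, a difference of 0.53 (adjusted p = 0.0017). In the shGAL PA-rich group it read 7.96, 7.79 and 8.09 against 7.29, 7.50 and 7.43 with PLKO, a difference of 0.54 (0.0031), and both calls were kept in all settings. Its other 5 calls were not: 0.54 for shEGR2_40.9 over PLKO on the PA-rich diet, diet effects of -0.39 with shEGR2_38.9 and 0.49 with shGAL, 0.79 for the shGAL diet effect over that of PLKO and -0.57 for that of shEGR2_38.9 over that of shEGR2_40.9. The first ended without PLKO PA-rich replicate 1 or shEGR2_40.9 PA-rich replicate 2, the second without shEGR2_38.9 control replicate 2 or 3 or PA-rich replicate 1, the third without shGAL control replicate 1 or 2 or PA-rich replicate 1 or 3, the fourth without PLKO PA-rich replicate 1, shGAL control replicate 2 or shGAL PA-rich replicate 3, and the last without any of 10 of its 12 arrays. The adjusted p then reached 0.054, 0.083, 0.22, 0.057 and 0.14.

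Xaf1, which counters inhibitors of apoptosis, read 9.08, 9.12 and 9.03 in PLKO controls against 8.82, 8.80 and 8.68 in shEGR2_40.9 and 8.90, 8.74 and 8.79 in shEGR2_38.9 controls. The groups did not overlap, as in 30.2% and 36.1% of all genes in these comparisons. The differences were -0.31 and -0.26 (adjusted p = 0.022 and 0.026). Xaf1 rose by 0.29 on the PA-rich diet with shEGR2_38.9 (0.018), 0.46 more than with PLKO (0.014), and was 0.29 lower with shGAL than with PLKO on the PA-rich diet (0.030). The mean over the gene's probe sets ended all 5 calls, with an adjusted p of 0.10 to 0.32, and so did leaving out single arrays. These were PLKO control replicate 1 or 2 for both control-diet differences, with shEGR2_40.9 control replicate 3 for the first and shEGR2_38.9 control replicates 2 and 3 for the second. They were shEGR2_38.9 control replicate 2 or PA-rich replicate 3 for the diet effect, PLKO PA-rich replicate 1 for its difference from PLKO, and replicate 2 or 3 of either PA-rich group for shGAL.

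The remaining effectors differed little between groups. Mx1 and Mx2, dynamin-like GTPases that trap viral capsids, read 6.36 to 6.98 and 6.95 to 7.50, and Isg20, an exonuclease, 10.42 to 10.90. Adar, which edits double-stranded RNA, read 9.21 to 10.09 and Ifitm3, which blocks viral fusion, 12.45 to 12.85, and the lowest array of both was the one that stood apart.

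Of the sensors, Ifih1, which encodes the RNA helicase MDA5, passed in 11 of the 14 comparisons, more than any other member. PLKO arrays read 9.17, 8.86 and 8.97 on the control diet and 7.96, 8.25 and 8.09 on the PA-rich diet. This fall of 0.90 (SE 0.10, adjusted p = 5.6e-05) left no overlap. In shGAL tumours the order was turned, with 8.56, 8.33 and 8.52 on the control diet and 9.12, 9.11 and 9.05 on the PA-rich diet, a rise of 0.63 (adjusted p = 0.0020). The shGAL effect was 1.53 more positive than that of PLKO (SE 0.14, adjusted p = 4.2e-06). Against PLKO, shGAL was 0.53 lower on the control diet (0.00094) and 1.00 higher on the PA-rich diet (6.0e-07).

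In shEGR2_40.9 controls Ifih1 read 7.91, 8.35 and 8.13, 0.87 below PLKO (adjusted p = 4.5e-06), and 8.50, 8.34 and 8.56 on the PA-rich diet. The rise of 0.34 with diet (adjusted p = 0.040) and the difference of 0.36 from PLKO on the PA-rich diet (0.043) were not kept. With the scan batch as a block the first had an adjusted p of 0.067. The first call ended without control replicate 1 or 3 or PA-rich replicate 1 or 3, and the second without PLKO PA-rich replicate 1 or 3 or any shEGR2_40.9 PA-rich array, with an adjusted p of up to 0.21 for both. In shEGR2_38.9 tumours Ifih1 read 8.78, 8.73 and 8.90, then 8.53, 8.57 and 8.50, a difference of -0.27 that did not pass. The diet effects of the EGR2 hairpins were more positive than that of PLKO by 1.23 and 0.63 (adjusted p = 2.7e-05 and 0.0047), and that of shEGR2_38.9 was 0.61 more negative than that of shEGR2_40.9 (0.012).

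Zbp1, a sensor of Z-form nucleic acid that can start necroptosis, read 8.37, 8.41 and 8.25 in PLKO controls and 7.96, 7.94 and 8.11 on the PA-rich diet, a difference of -0.34 that did not pass. On that diet it was 8.59, 8.61 and 8.52 with shEGR2_40.9 and 8.48, 8.40 and 8.68 with shEGR2_38.9, against 7.88, 7.91 and 7.61 with shGAL. Both EGR2 groups lay above all PLKO and shGAL arrays on this diet. The differences from PLKO were 0.57 (SE 0.09, adjusted p = 0.00043) and 0.51 (0.0077), the second lost with the scan batch as a block, with the mean over probe sets and without shEGR2_38.9 PA-rich replicate 3 (up to 0.085). The second probe set of Zbp1 moved by -0.06 to 0.12 with diet in any hairpin and passed in none of these.

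On the control diet Zbp1 was 8.26, 8.24 and 8.29 with shEGR2_40.9, 8.79, 8.52 and 8.78 with shEGR2_38.9 and 8.03, 7.99 and 8.03 with shGAL. It was 0.35 above PLKO with shEGR2_38.9 (adjusted p = 0.0041; 0.087 with the mean over probe sets and 0.065 when only the arrays compared were fitted) and 0.32 below with shGAL (0.014; 0.061 without PLKO control replicate 2). The diet effect with shEGR2_40.9, 0.31 (adjusted p = 0.026), lost its call without any control array or PA-rich replicate 1 or 2 (up to 0.097). It was 0.65 more positive than that of PLKO (0.0039), and that of shEGR2_38.9 was 0.49 more negative than it (0.020). The last call was lost without shEGR2_38.9 PA-rich replicate 1 or 2 or shEGR2_40.9 PA-rich replicate 2 (up to 0.070). It was also lost with the mean over probe sets and when only the arrays compared were fitted.

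Dhx58, which encodes LGP2, a helicase that tunes MDA5, read 7.88, 8.15 and 8.25 in shEGR2_40.9 controls and 8.56, 8.47 and 8.48 on the PA-rich diet. With shEGR2_38.9 it read 8.21, 8.15 and 8.26, then 8.46, 8.67 and 8.63, and with PLKO 8.00, 8.34 and 8.14, then 7.94, 8.17 and 8.18. Neither EGR2 group overlapped PLKO on the PA-rich diet. Dhx58 rose by 0.41 (adjusted p = 0.011; up to 0.087 without replicate 1 of either shEGR2_40.9 group) and by 0.38 (0.0087; 0.053 with the mean over probe sets). The differences from PLKO on the PA-rich diet, 0.41 and 0.49 (0.022 and 0.026), and the difference of 0.45 between the diet effects of shEGR2_38.9 and PLKO (0.041) were each lost without PLKO PA-rich replicate 1 (up to 0.15 over all settings). A block for the scan batch ended both differences from PLKO, and the mean over probe sets ended the second and the last named. The first also ended without any shEGR2_40.9 PA-rich array, the second without PLKO PA-rich replicate 2 or 3, the third without PLKO control replicate 2 or 3 or shEGR2_38.9 control replicate 1 or 2, and both of the latter without shEGR2_38.9 PA-rich replicate 2 or 3. Eif2ak2, the kinase PKR that halts translation, read 7.02 to 7.47 on the control-diet arrays of PLKO, shEGR2_40.9 and, but for 6.82 on the array that stood apart, shEGR2_38.9. Its shGAL arrays read 6.98, 7.30 and 6.84 on the control and 7.14, 6.89 and 6.76 on the PA-rich diet, and its PA-rich arrays 7.05, 7.04 and 7.40 with PLKO, 7.46, 7.59 and 7.52 with shEGR2_40.9 and 7.29, 7.17 and 7.47 with shEGR2_38.9. It passed in none of the 14 comparisons.

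Among the regulators, Usp18, the protease that strips ISG15 and damps the interferon receptor, had the largest rise with the PA-rich diet in shEGR2_40.9 tumours. It read 8.14, 8.60 and 8.10 on the control diet and 9.012, 9.001 and 9.134 on the PA-rich diet, without overlap, a rise of 0.77 (SE 0.13, adjusted p = 0.00027). PLKO arrays read 8.51, 8.42 and 8.12, then 8.20, 8.29 and 8.37, and the shEGR2_40.9 diet effect was 0.83 more positive (adjusted p = 0.0095). In shEGR2_38.9 tumours Usp18 was high on both diets, at 8.80, 8.84 and 8.70 and at 8.99, 9.06 and 8.85. In shGAL tumours it was 8.25, 8.24 and 7.86, then 8.07, 7.70 and 7.86. As 9 of 10 endothelial markers fell in both comparisons of diet with EGR2 hairpins, the part of a changed make-up of cells in the rises of Usp18, Oas2, Rtp4 and the other genes higher there was not tested. In the PA-rich groups the endothelial list averaged 7.92 to 8.25 with PLKO, 8.16 to 8.33 with shEGR2_40.9 and 8.35 to 8.58 with shEGR2_38.9.

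On the PA-rich diet Usp18 was 0.76 above PLKO with shEGR2_40.9 (adjusted p = 0.00080). It was 0.68 above with shEGR2_38.9 (0.014), a call lost with a block for the scan batch and without PLKO PA-rich replicate 1 or 2 or shEGR2_38.9 PA-rich replicate 2 (up to 0.099). With shGAL it was 0.41 below (0.036), lost without any PLKO PA-rich array or shGAL PA-rich replicate 2 or 3 (up to 0.17). On the control diet it was 0.43 above PLKO with shEGR2_38.9 (0.013), lost with the block and without PLKO control replicate 3 (up to 0.096).

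Herc6, the ligase that attaches ISG15 in the mouse, read 6.13, 6.30 and 6.14 in shEGR2_40.9 controls and 6.65, 6.72 and 6.79 on the PA-rich diet, and rose by 0.53 (SE 0.11, adjusted p = 0.0034). The control mean was under the floor, at 6.19, and counted from the floor the rise was at least 0.45. With shEGR2_38.9 it read 6.60, 6.59 and 6.48, then 6.869, 6.920 and 7.001, a rise of 0.37 (0.020; up to 0.079 without control replicate 3 or PA-rich replicate 3). PLKO arrays read 6.50, 6.48 and 6.48 on the control diet and 6.38, 6.98 and 6.38 on the PA-rich diet, where the second array stood above the others. Neither EGR2 hairpin's diet effect differed from that of PLKO past the threshold.

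Parp9, Dtx3l and Parp14 lie side by side on chromosome 16 with no coding gene between them. Their products, an ADP-ribosyltransferase, its ubiquitin ligase partner and a second ADP-ribosyltransferase, act in interferon responses. Parp9 read 9.09, 9.14 and 9.19 in shEGR2_38.9 controls and 9.63, 9.65 and 9.81 on the PA-rich diet, a rise of 0.56 (SE 0.10, adjusted p = 0.00017) that was 0.52 more than with PLKO (0.013). Dtx3l read 8.12, 8.09 and 7.94, then 8.45, 8.71 and 8.50, a rise of 0.50 (adjusted p = 0.024; up to 0.11 without control replicate 3 or PA-rich replicate 2). Its PLKO control arrays read 8.36, 8.24 and 9.06. Without the third of these, the Dtx3l difference of -0.50 between shEGR2_38.9 and PLKO controls (adjusted p = 0.020) had an adjusted p of 0.19, and the difference of 0.80 between the diet effects (0.019) one of 0.053. The first of these was also lost without shEGR2_38.9 control replicate 3, and the second without PLKO PA-rich replicate 1 or shEGR2_38.9 PA-rich replicate 2 (up to 0.066). Parp14 read 10.67, 10.72 and 9.95 in shEGR2_38.9 controls, 0.41 above PLKO (adjusted p = 0.018), and 0.66 above without the array that stood apart (1.5e-06), where its diet difference of -0.24 also passed (0.031). The call against PLKO was lost without PLKO control replicate 1 or shEGR2_38.9 control replicate 1 or 2 and when only the arrays compared were fitted (up to 0.20).

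Trim25, the ligase that activates RIG-I, read 9.39, 9.47 and 9.60 in shEGR2_38.9 controls, above every other array, and was 0.62 above PLKO controls (SE 0.09, adjusted p = 1.3e-05). Its fall of 0.32 between the diets (0.010) had an adjusted p of 0.0503 without the array that stood apart. The difference of -0.41 from the PLKO diet effect (0.031) was lost without any of 8 of its 12 arrays, that array among them (up to 0.082). Ifi35, a partner of Nmi, read 8.92, 8.90 and 8.65 in shEGR2_38.9 controls and 9.18, 9.08 and 9.16 on the PA-rich diet, a rise of 0.31 (adjusted p = 0.0042; 0.079 when only the arrays compared were fitted). This was 0.47 more than with PLKO (0.0045), and its difference of -0.24 from PLKO controls (0.021) was lost without PLKO control replicate 3 or the array that stood apart (up to 0.21 over all settings). Irf9, the DNA-binding part of the type I complex, read 10.36, 10.40 and 10.31 with shGAL on the PA-rich diet and 10.60, 10.53 and 10.64 with PLKO, without overlap. It was 0.23 lower with shGAL (adjusted p = 0.021), lost without PLKO PA-rich replicate 1 or 3 or shGAL PA-rich replicate 1 or 3 (up to 0.095). Irf7 and Stat2, which drive and carry the type I response, read 8.47 to 9.24 and 9.69 to 10.39 and passed in none. Trim30a, an inhibitor of inflammatory signalling under the floor, read 6.79, 6.86 and 5.93 in shEGR2_38.9 controls against 5.57 to 6.11 in all other groups.

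**Figure D3:**
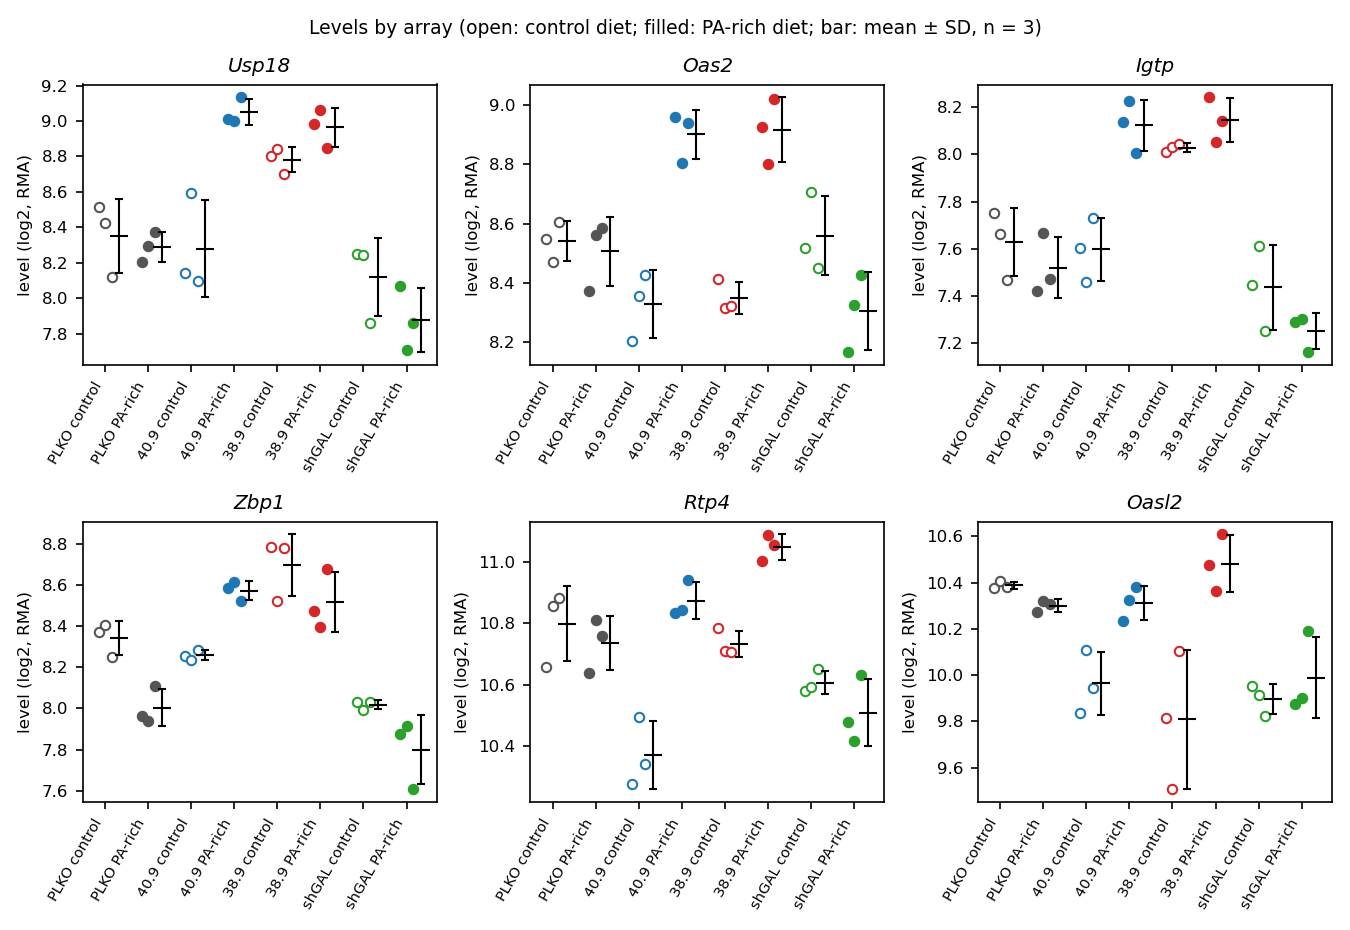
Log2 levels on each array (points; open, control diet; filled, PA-rich diet) with the mean ± SD of 3 arrays, by group, for Usp18, Oas2, Igtp, Zbp1, Rtp4 and Oasl2. On the PA-rich diet Usp18 reads 9.001 to 9.134 with shEGR2_40.9 and 8.85 to 9.06 with shEGR2_38.9, above the PLKO and shGAL arrays, none of which exceeds 8.51.

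The antigen processing genes Psmb8 and Psmb9 encode catalytic subunits of the immunoproteasome and lie on chromosome 17 on either side of Tap1. Psmb9 read 8.92, 9.21 and 9.15 in shEGR2_40.9 controls and 9.56, 9.51 and 9.45 on the PA-rich diet, a rise of 0.42 (SE 0.09, adjusted p = 0.0061) with no overlap. The call ended without control replicate 1 (adjusted p = 0.052). PLKO arrays read 9.27, 9.28 and 9.25, then 9.43, 9.31 and 9.55, shEGR2_38.9 arrays 9.25, 9.16 and 9.56, then 9.49, 9.57 and 9.50, and shGAL arrays 9.32, 9.44 and 9.16, then 9.23, 9.15 and 9.07. The shEGR2_40.9 diet effect of Psmb9 was not different from that of PLKO past the threshold (0.25, adjusted p = 0.37).

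Psmb8 read 10.17, 10.32 and 10.08 in shEGR2_40.9 controls and 10.74, 10.71 and 10.68 on the PA-rich diet, and its difference of 0.52 did not pass (SE 0.18, adjusted p = 0.070) although the groups did not overlap. It passed without the array that stood apart, which belongs to another group but enters the shared spread (adjusted p = 4.5e-05), and just passed with the scan batch as a block (0.0495). The widest spread of the gene was in another group, since shEGR2_38.9 controls read 10.71, 10.54 and 9.49, the last on the array that stood apart, against 10.64, 10.66 and 10.66 on the PA-rich diet. PLKO arrays read 10.39, 10.45 and 10.35, then 10.53, 10.47 and 10.45, and shGAL arrays 10.33, 10.51 and 10.25, then 10.35, 10.37 and 10.19. With shEGR2_38.9 the diet difference of Psmb8 was 0.41 with that array and 0.03 without it, and neither passed. Without it, those controls were 0.23 above PLKO controls (adjusted p = 0.042), a call that was not made with it.

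The interferon-inducible GTPases guard vacuoles that hold pathogens. Igtp, which encodes Irgm3, read 7.60, 7.46 and 7.73 in shEGR2_40.9 controls and 8.14, 8.22 and 8.01 on the PA-rich diet. It rose by 0.53 (SE 0.10, adjusted p = 0.00084), which was 0.63 more than with PLKO (0.0093). In shEGR2_38.9 tumours it was high on both diets, at 8.01, 8.03 and 8.04 and at 8.24, 8.05 and 8.14. PLKO arrays read 7.75, 7.66 and 7.47, then 7.42, 7.67 and 7.47, all below both of these groups. In PA-rich groups Igtp was 0.60 above PLKO with shEGR2_40.9 and 0.62 above with shEGR2_38.9 (adjusted p = 0.00054 and 0.0026), and on the control diet 0.40 above with shEGR2_38.9 (0.0031). Gbp2 read 7.24 to 8.27 over all arrays and passed in no comparison, and Gbp3, under the floor, 5.83 to 6.59.

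**Figure D4:**
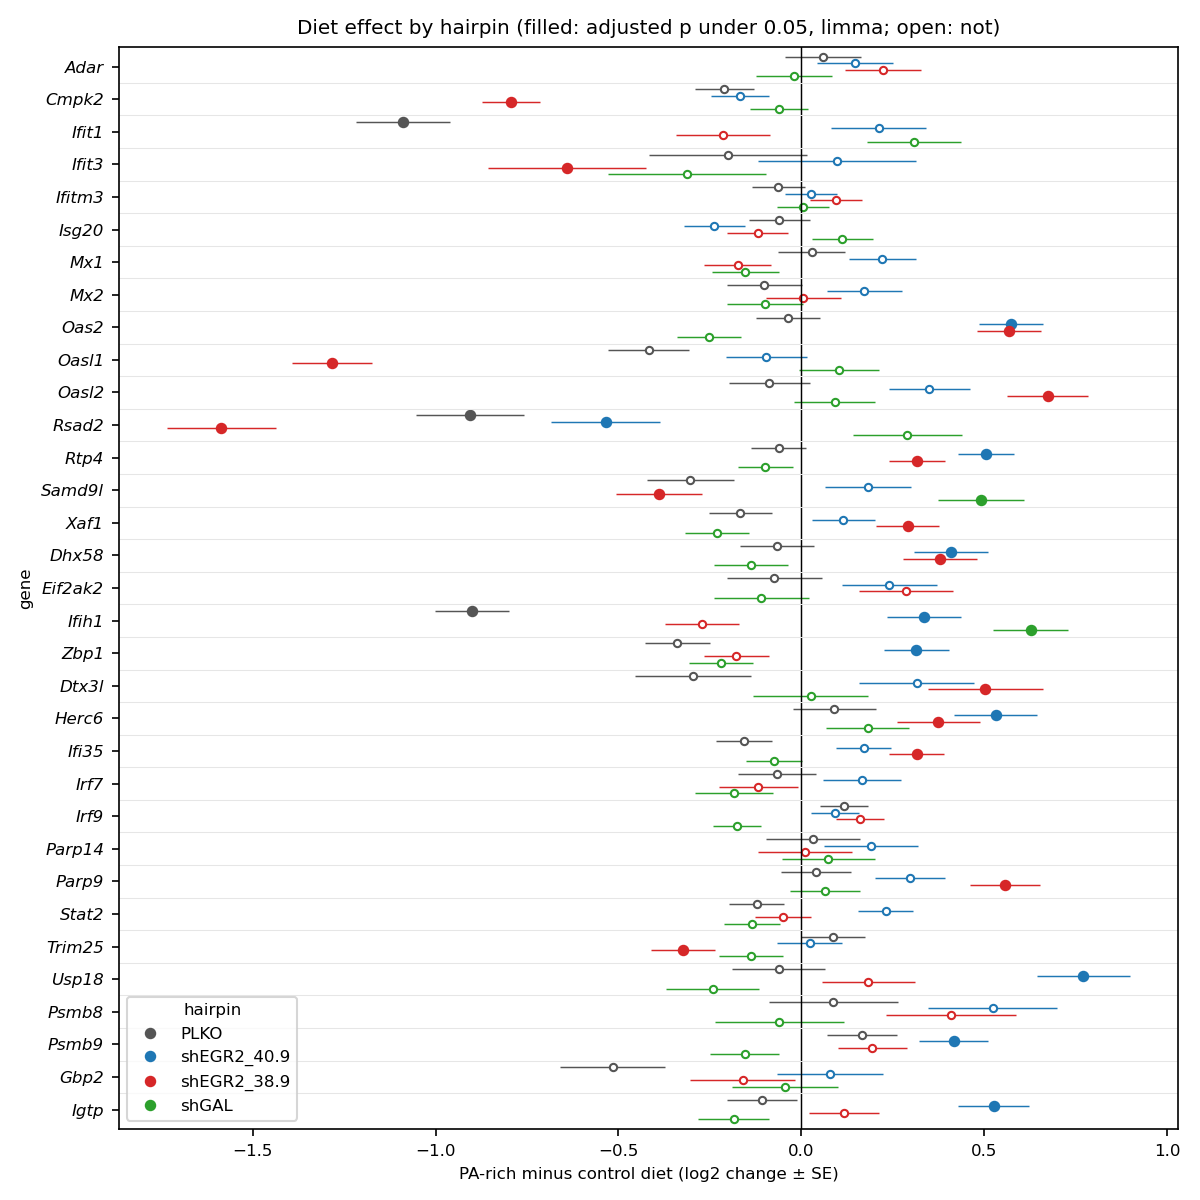
Difference between the PA-rich and the control diet (log2, PA-rich minus control; bar, SE) for each tested gene in each hairpin, with filled points for an adjusted p under 0.05. Ifit1 and Ifih1 are at -1.09 and -0.90 with PLKO, Rsad2, Oasl1 and Cmpk2 at -1.59, -1.28 and -0.79 with shEGR2_38.9, and Usp18 at 0.77 with shEGR2_40.9.

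Genes upstream in the pathway gave few calls, to be read against the shares of all genes called with diet, which were 3.73% higher and 5.22% lower with shEGR2_40.9 and 13.8% and 8.3% with shEGR2_38.9. Of 7 ligand and receptor genes tested, Ifnar2, a chain of the type I receptor, fell on the PA-rich diet with shEGR2_40.9 by 0.26 (adjusted p = 0.011) and with shEGR2_38.9 by 0.20 (0.026), and 0 of 7 passed with PLKO or shGAL. The interferon genes Ifnb1, Ifna2, Ifna4 and Ifng were under the floor. Ifna1 was above it, with a mean of 8.32 over all arrays, and is among the 7 tested. Of 12 signal transducers and feedback genes, Irf8, a factor of myeloid cells, was the one that passed with diet in both EGR2 hairpins. It fell by 0.81 with shEGR2_40.9 (adjusted p = 1.2e-06) and by 1.30 with shEGR2_38.9 (9.0e-10), from 8.99, 9.04 and 9.24 in the shEGR2_38.9 controls. Of 10 genes of nucleic acid sensing, Sting1, the adaptor of DNA sensing, fell by 0.52 (0.0033) and 0.35 (0.025) with these hairpins. Endothelial and macrophage markers fell in the same comparisons (9 of 10 endothelial, and 2 and 3 of 6 macrophage markers), and their part in the levels of Irf8 and Sting1 was not tested.

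Of 34 further interferon-induced genes, 1 was lower and 0 were higher with diet in PLKO tumours. It was Cxcl10, a chemokine that draws T cells, which fell by 0.50 (adjusted p = 0.023). With shEGR2_40.9, 6 were higher and 2 lower (3.73% and 5.22% of all genes), and with shEGR2_38.9, 8 were higher and 6 lower (13.8% and 8.3%). The synthetase genes Oas3 and Oas1g, which act as Oas2 does, rose with both, by 0.67 and 0.78 for Oas3 (adjusted p = 0.0015 and 0.00012) and by 0.40 and 0.38 for Oas1g (0.0053 and 0.0036). Parp12, an ADP-ribosyltransferase, rose by 0.49 and 0.90 (0.030 and 5.2e-05), and Slfn2, a regulator of quiescence in T cells and monocytes, by 0.63 and 0.96 (0.0022 and 7.8e-06). Slfn5 fell by 0.69 and 1.12 (0.018 and 8.3e-05), and Iigp1, a GTPase of the same kind as Igtp, by 1.73 with shEGR2_38.9 (1.6e-05). The mean of Iigp1 over all arrays, 6.47, lay close to the floor. Whether its fall ended under the floor was not examined, so the size of that fall is uncertain. With shGAL 0 of 34 passed. Of 10 class I partners, Nlrc5, the transactivator of class I genes, rose by 0.32 with shEGR2_40.9 (adjusted p = 0.0067) and by 0.25 with shEGR2_38.9 (0.018).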

How the data were processed

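RNA was measured on 24 Affymetrix mouse arrays, 3 for each of 8 groups of hairpin and diet. The values are log2 levels that the authors deposited, for which the submitters' processing notes name RMA and affy, and the annotation used here pairs probe sets with genes. Of 45141 probe sets, 28898 named 1 gene, 551 several and 15692 none, and the probe set with the highest mean stood for its gene. Human tumour RNA that binds mouse probes was not tested for. Genes under the 40th percentile of probe set means (6.27) were left out.

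Group means were fitted with limma 3.58.1 in R 4.3.3 (lmFit and eBayes, 16 residual degrees of freedom) over all 24 arrays and 11844 genes, and p-values were Benjamini-Hochberg adjusted over these genes, with a threshold of 0.05. The same fit gave 4 diet effects, 6 differences from PLKO within a diet and 4 differences between diet effects. The script was tested on simulated data. Tables were made with Python 3.11.15 and pandas 2.3.3.

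The arrays fell into 6 scan batches of 4, read from the labels. Within a hairpin, arrays of the same replicate number in both diets were scanned together, and each hairpin shared 1 batch with PLKO. The deviations of the 12 same-numbered pairs correlated at -0.03 to 0.24, with 7 over 0.1. A fit with the scan batch as a block, fits without each array, and alternatives in filter, normalisation, probe set rule, array weights and arrays fitted were run, as the closing section gives.

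The genes and lists were chosen with earlier results of these data known. All 41 genes are accounted for. Array values are given for genes past the threshold and for sensors and antigen processing genes, with at most 4 of a role in a comparison chosen by size of change, and list genes are named from those past the threshold. The number of arrays limits the precision.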

Additional observations from a re-analysis of the deposited data

Results flagged for a closer look

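By a test of the difference itself (limma, adjusted p under 0.05), the effect of diet differed between hairpins for 18 of the 33 tested genes. They are 54.5% of the 33, against 16.9% of all genes tested. The genes were chosen with earlier results of these data known, so this contrast is no test of the set. The comparisons with PLKO share the PLKO arrays, and the reported p-values and the arrays that end a call stand with each gene in the report. Against PLKO, the shEGR2_40.9 diet effect was more positive by 0.57 for Rtp4, 0.61 for Oas2, 0.63 for Igtp, 0.65 for Zbp1, 0.83 for Usp18, 1.23 for Ifih1 and 1.30 for Ifit1.

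The shEGR2_38.9 diet effect was more positive than that of PLKO by 0.38 for Rtp4, 0.45 for Dhx58, 0.46 for Xaf1, 0.47 for Ifi35, 0.52 for Parp9, 0.60 for Oas2, 0.63 for Ifih1, 0.76 for Oasl2, 0.80 for Dtx3l and 0.88 for Ifit1. It was more negative for 4 genes, by -0.41 for Trim25, -0.58 for Cmpk2, -0.68 for Rsad2 and -0.87 for Oasl1. The shGAL diet effect was more positive than that of PLKO by 0.79 for Samd9l, 1.20 for Rsad2, 1.40 for Ifit1 and 1.53 for Ifih1.

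Between the hairpins against EGR2, the shEGR2_38.9 diet effect was the more negative for 6 genes, by -0.49 for Zbp1, -0.57 for Samd9l, -0.61 for Ifih1, -0.63 for Cmpk2, -1.05 for Rsad2 and -1.19 for Oasl1.

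Among the genes left out of the test for a low mean, Ifit2 was above the floor of 6.27 in the shEGR2_40.9 control group, at 6.34, and in the shEGR2_38.9 control group, at 8.24. Trim30a was above it in the shEGR2_38.9 control group, at 6.53, and Gbp3 in the PLKO control group, at 6.30. The lowest of the 3 shEGR2_38.9 control arrays for Ifit2 and Trim30a was the one that stood apart.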

How the results depend on the processing

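Of 107 calls, 62 were kept in every alternative run for the gene, 76 in all of these that kept every array and 67 in all that left 1 array out. None reversed. The 4 calls of Cmpk2 could not be tested with the mean over probe sets. Array weights raised the count of genes called to 6, 16 and 6 for the diet effects with PLKO, shEGR2_40.9 and shGAL, to 8 and 10 for shEGR2_40.9 and shGAL against PLKO on the control diet, to 16, 18 and 14 for shEGR2_40.9, shEGR2_38.9 and shGAL against PLKO on the PA-rich diet, to 14 for the difference between the diet effects of shEGR2_40.9 and PLKO and to 13 for that between the EGR2 hairpins. Fitting only the arrays compared gave 1 for the shGAL diet effect (0.397% of all genes). For shEGR2_38.9 against PLKO it gave 9 on the control (12.4%) and 11 on the PA-rich diet (1.6%). The replicate block by scan batch ended 13 of the 107 calls. It gave 5 and 2 genes for shEGR2_40.9 and shEGR2_38.9 against PLKO on the PA-rich diet (2.77% and 0.203% of all genes). Leaving out 1 array gave 3 to 4, 5 to 15, 12 to 16 and 1 to 2 genes for the diet effects (PLKO, shEGR2_40.9, shEGR2_38.9, shGAL), 4 to 6, 12 to 15 and 4 to 8 against PLKO on the control diet (shEGR2_40.9, shEGR2_38.9, shGAL), 4 to 9, 3 to 9 and 5 to 12 on the PA-rich diet, and 7 to 12, 9 to 14, 3 to 5 and 4 to 9 for the differences between diet effects (the 3 hairpins against PLKO, then shEGR2_38.9 against shEGR2_40.9). Of these fits, only that without the array that stood apart had its share of all genes counted. Single genes lost 2 calls with array weights, 2 with no filter, 3 with renewed quantile normalisation, 11 of 103 with the mean over probe sets and 19 with only the arrays compared. Over all genes, renewed quantile normalisation moved the split of higher and lower calls from 158 and 72 to 118 and 96 for the shGAL diet effect, from 928 and 654 to 692 and 756 for the difference between the diet effects of shEGR2_38.9 and PLKO, and from 120 and 38 to 95 and 56 for that of shGAL and PLKO. Low signal limits Ifit2, Trim30a and Gbp3, and also Oasl1 in 3 PA-rich groups and Herc6 in the shEGR2_40.9 and shGAL control groups, whose means lay under the floor. The cause of these changes was not tested.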
